A study of Caenorhabditis elegans with 24 samples.

Results

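Animals of wild-type genotype at the F3 generation, descended from an outcross of meg-3 meg-4 double mutants, were compared with the meg-3 meg-4 mutants themselves to find which small RNAs had changed by F3, once both genes were restored, and which had been kept. The comparison rests on 4 of the 24 libraries of the series, 2 of F3 animals and 2 of meg-3 meg-4 animals (strain JH3225, called meg-3/4 here). The 2 libraries of the wild-type strain N2 give the level to return to, and 2 libraries each of the later descendants (F4 to F7, then F10, F15, F20, F25) and of hrde-1; meg-3/4 triple mutants are used to follow features set apart at F3. All of these animals were whole young adults raised at 20 °C on OP50 bacteria, so each library averages over the germline and all somatic tissues. RNAs of about 15 to 30 nucleotides were gel-purified and treated so that siRNAs with a triphosphate at the 5′ end could be cloned. Members of a group are labelled biological replicates. Nothing says whether they came from separate cultures, and the p-values therefore cover only the spread between these samples. The labels do not say how the outcross was made, how F3 animals were picked, or which alleles JH3225 carries, and generations before F3 are not analysed here.

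The germ granules of the early embryo assemble on MEG-3 and MEG-4, proteins without a fixed fold. Germ granules hold Argonaute proteins and the enzymes that copy messenger RNAs into short antisense siRNAs, known as secondary siRNAs. The nuclear Argonaute HRDE-1 carries such siRNAs through the germline from parent to offspring, where they can silence genes for many generations. A small RNA pattern set in one genotype can therefore be met again in descendants that no longer have that genotype.

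Each value is the number of reads antisense to an annotated gene, divided by a size factor for the library, and is called a normalized count. The antisense strand was read from the data: in 26 of 28 places where a non-coding feature lies opposite a microRNA gene, the opposite feature had the higher value. Levels of different genes are not corrected for length and are compared here only between groups. Of 46726 features listed, 8869 reached 10 normalized counts in 2 or more of the 24 libraries and were tested. Depth was 2962716 and 2325055 reads in F3, 2100200 and 2058156 in meg-3/4, and 2926820 and 2884130 in wild type. A single read was worth 0.619 and 0.790 normalized counts in F3, 1.11 and 0.982 in meg-3/4, and 0.579 and 0.584 in wild type. In bulk samples such as these, fewer cells of a type and less RNA per cell cannot be told apart.

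The genes altered in the mutant were looked at first (no source used here gives the extent of their lesions). Reads antisense to meg-3 were 74.2 and 58.4 normalized counts in the F3 libraries, 7.74 and 7.86 in meg-3/4, and 42.8 and 64.2 in wild type. Reads antisense to meg-4 were 71.1 and 80.5 in F3, 12.2 and 3.93 in meg-3/4, and 54.99 and 74.2 in wild type. For both genes every F3 library was above every meg-3/4 library (limma log2 change 2.47 with SE 0.271 and adjusted p = 3.14e-06 for meg-3; 2.70 with SE 0.315 and adjusted p = 6.21e-06 for meg-4). The F3 values overlapped those of wild type for both genes. Reads antisense to hrde-1, which is intact in all 3 groups by label, were 1299.6 and 1360.5 in F3, 1164 and 1115 in meg-3/4, and 1351 and 1359.9 in wild type, a difference between F3 and meg-3/4 that did not pass the test (adjusted p = 0.442).

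Small RNAs against 491 features rose at F3 relative to meg-3/4 and those against 260 fell (limma on log2(normalized count + 5), two-sided, Benjamini-Hochberg adjusted p under 0.05). These are 5.54% and 2.93% of all features tested. A change of at least 1 on the log2 scale was reached by 343 of the features that rose and 111 of those that fell, and a change of at least 3 by 11 and 3. Of the 491 that rose, 412 were features that meg-3/4 had lost relative to wild type and 5 were features it had gained. Of the 260 that fell, 170 had been gained in meg-3/4 and 12 had been lost. The F3 and wild-type comparisons share the meg-3/4 libraries, which alone favours such opposite calls, and these counts are a description.

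The balance of rises and falls, and both counts (491 and 260 with all libraries), depend on the scaling and on single libraries. With the authors' size factors the median feature differed by −0.01 on the log2 scale between F3 and meg-3/4. With library totals made equal the median moved to 0.20, 685 features rose and 113 fell, so that 85.8% of the calls were rises in place of 65.4%. Leaving out F3 replicate 1 reduced the features that fell to 130, leaving out F3 replicate 2 to 169, leaving out meg-3/4 replicate 1 to 106 and leaving out meg-3/4 replicate 2 to 173, while the count that rose stayed between 343 and 371. MicroRNA reads took an uneven share of the libraries: F16A11.6 and K01F9.6, the features opposite mir-71 and mir-80, took 19.8% and 17.8% of the normalized counts in the F3 libraries, 25.97% and 20.0% in meg-3/4, and 15.0% and 14.4% in wild type. Neither feature was called between F3 and meg-3/4 (adjusted p = 0.62 and 0.741). The part of this share in the results was not tested.

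Most of the largest rises brought small RNAs back against genes that had far fewer of them in meg-3/4 than in wild type. Y69H2.10 and T05G5.1, also among the 12 largest, were not called between meg-3/4 and wild type and are described further on. Y51H7C.12, on chromosome II, had 230.1 and 181 normalized counts in F3, 11.06 and 12.8 in meg-3/4, and 228 and 236 in wild type. Its log2 change of 3.63 (SE 0.142, adjusted p = 5.06e-12) covered 95.2% of the log2 distance between meg-3/4 and wild type, and the F3 and wild-type libraries overlapped. T19A6.4 was restored in the same way, with 246 and 244 in F3, 25.4 and 22.6 in meg-3/4, and 241 and 212 in wild type. The adhesion protein gene cdh-1, a cadherin, had 165 and 89.2 in F3, 6.64 and 8.84 in meg-3/4, and 415 and 162 in wild type, with its wild-type libraries far apart.

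Other genes rose as far on the log2 scale and still stopped short of wild type. The zinc finger gene znf-782 had 313 and 329 normalized counts in F3, 37.6 and 29.5 in meg-3/4, and 1264 and 1335 in wild type. It rose by 3.09 (SE 0.176, adjusted p = 6.68e-10), which is 60.7% of the way back, and stayed below wild type (adjusted p = 1.81e-07). The acyl-CoA synthetase gene acs-5 had 105 in both F3 libraries, 5.53 and 6.87 in meg-3/4, and 299.8 and 309 in wild type. The alpha-glucosidase gene aagr-1 had 191 and 118 in F3, 11.06 and 6.87 in meg-3/4, and 342 and 384 in wild type. For all 3 of these genes no F3 library reached a wild-type one, and none came down to a meg-3/4 one. The cuticle collagen gene col-111 was less even, with 44.5 and 171 in F3, 3.32 and 2.95 in meg-3/4 (3 reads in each library), and 304 and 249 in wild type.

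A few features rose past wild type. T14G8.3, on the X chromosome, had 219 and 214 normalized counts in F3, 27.7 and 21.6 in meg-3/4, and 126 and 131 in wild type, so that F3 was above wild type in both libraries (log2 0.73, adjusted p = 0.0271). The F-box gene fbxa-166 had 262 and 235.3 in F3, 45.4 and 57.9 in meg-3/4, and 119 and 134 in wild type, a rise of 2.17 over meg-3/4 (adjusted p = 8.23e-09) and of 0.95 over wild type (adjusted p = 0.000124). In all, 22 of the 412 lost features that rose ended above wild type, 157 ended below it and 233 were not called against it.

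**Figure D1:**
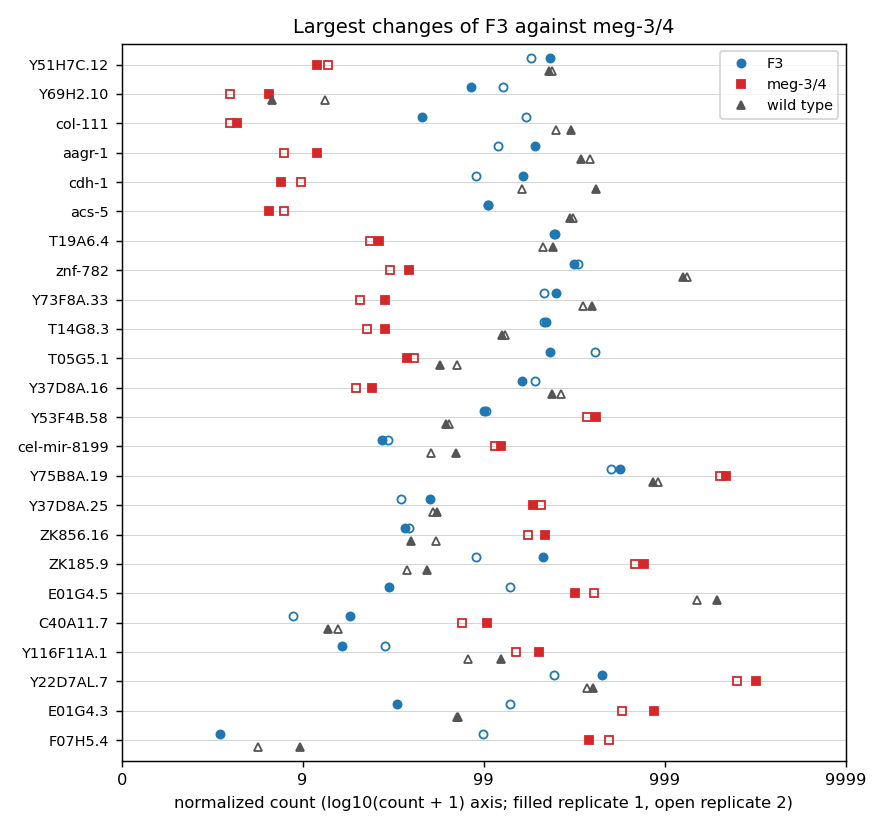
Normalized counts of the 12 features with the largest rise (upper rows) and the 12 with the largest fall (lower rows) between F3 and meg-3/4, on a log10(count + 1) axis; blue circles are F3, red squares meg-3/4 and grey triangles wild type, filled for replicate 1 and open for replicate 2. The F3 and meg-3/4 symbols do not overlap in any row, which the choice of rows required, and in Y51H7C.12 the F3 symbols (230.1 and 181) lie at the wild-type ones (228 and 236) while in znf-782 (313 and 329) they lie below them (1264 and 1335).

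The largest falls were less even between libraries. Y22D7AL.7 had 448 and 242 normalized counts in F3, 3196 and 2495 in meg-3/4, and 403 and 371 in wild type, a log2 change of −3.08 (SE 0.340, adjusted p = 3.24e-06). E01G4.3 had 32.2 and 139 in F3, 868 and 580.4 in meg-3/4, and 70.6 and 71.2 in wild type. Its change of −3.29 (SE 0.694, adjusted p = 0.00358) lost the call without F3 replicate 1 (adjusted p = 0.104) or meg-3/4 replicate 1 (adjusted p = 0.0553). In both genes the F3 libraries lay on either side of the wild-type ones.

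The pseudogene F07H5.4 had the largest fitted fall and F3 libraries that disagreed. It had 2.47 and 97.9 normalized counts in F3, 383 and 489 in meg-3/4, and 8.68 and 4.67 in wild type, so 1 F3 library was below wild type and the other far above it. The change of −3.98 (SE 0.898, adjusted p = 0.00621) was not called without F3 replicate 1 (adjusted p = 0.202), without meg-3/4 replicate 2 (adjusted p = 0.0582) or by DESeq2 (adjusted p = 0.179). Steadier falls were seen at ZK856.16, with 35.9 and 37.9 in F3, 218 and 175 in meg-3/4, and 38.8 and 53.7 in wild type, and at Y75B8A.19, with 567 and 503 in F3, 2178 and 2026 in meg-3/4, and 858 and 923 in wild type. Y75B8A.19 fell by 1.97 on the log2 scale (SE 0.155, adjusted p = 4.8e-08) and passed below wild type in both libraries. Of the 24 features with the largest changes, 14 overlap another annotated feature, whose reads the authors' counting may have shared or set aside.

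Reset and kept small RNAs were then counted by what meg-3/4 had done to them. In meg-3/4, 734 features had gained small RNAs over wild type and 1564 had lost them, which is 8.28% and 17.6% of the features tested. At F3, 4.1% of all features were called above wild type and 13.5% below it, whether or not they had been altered in meg-3/4. All 3 comparisons share libraries, so the classes describe the features and their medians for these groups are set by the choice. Among the 1564 lost features, 412 (26.3%) rose at F3, 785 (50.2%) were kept, meaning that they were not called against meg-3/4 and were still called below wild type, 355 (22.7%) were called neither against meg-3/4 nor against wild type, and 12 fell further. Among the 734 gained features, 170 (23.2%) fell at F3, 187 (25.5%) were kept above wild type, 372 (50.7%) were called neither way, and 5 rose further. The kept losses were 496 without wild type replicate 1 and 477 without wild type replicate 2. The kept gains were 108 without F3 replicate 2, 95 without wild type replicate 1 and 94 without wild type replicate 2. Leaving out F3 replicate 1 left 91 gained features that fell, leaving out F3 replicate 2 left 111 and leaving out meg-3/4 replicate 1 left 73.

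The lost features that rose had covered a median of 77.5% of the log2 distance back to wild type, with quartiles of 55.4% and 110%. The gained features that fell had covered 73.9%, with quartiles of 58.0% and 97.1%. Those called neither way stood near the middle, at 46.2% for losses and 50.3% for gains. The kept features had covered 3.79% for losses and 11.3% for gains. A feature called neither way is not shown to be at either level.

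**Figure D2:**
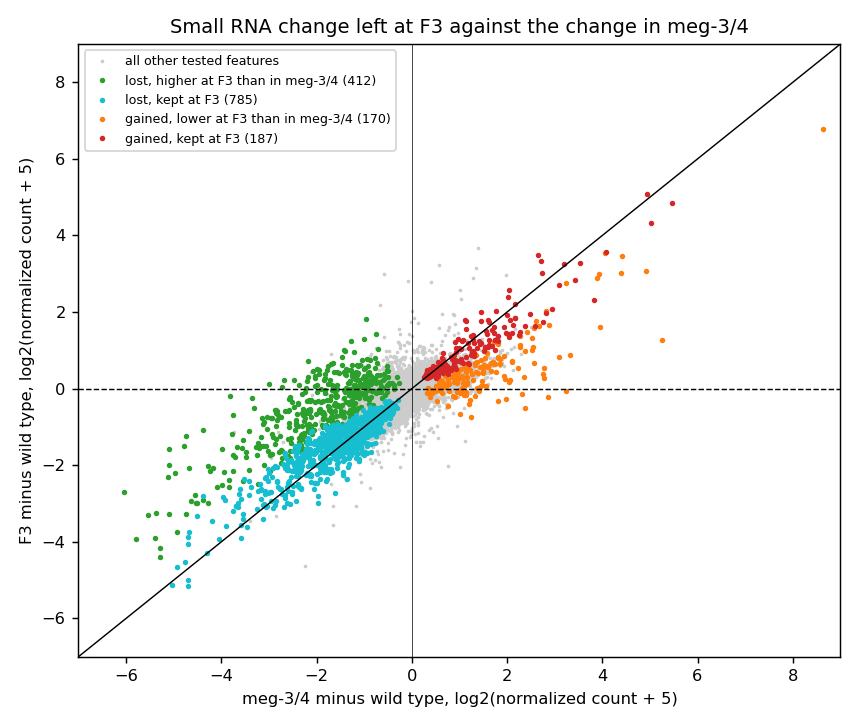
Each point is a feature, placed by its log2 difference between meg-3/4 and wild type (x axis) and between F3 and wild type (y axis), both on log2(normalized count + 5). The solid diagonal is no change between meg-3/4 and F3 and the dashed line is a full return to wild type; the 785 kept losses and 187 kept gains lie along the diagonal, and the 412 losses that rose and 170 gains that fell lie between it and the dashed line or past it.

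To keep the libraries that choose the features apart from those that are read, features were chosen in the replicate 1 libraries of meg-3/4 and wild type and read in the replicate 2 libraries, and the reverse. The 541 features lost by at least 1 on the log2 scale in replicate 1 were changed by −1.88 (median) between meg-3/4 and wild type in replicate 2, and F3 was 0.71 above meg-3/4 there, or 37.8% of the way back. With the replicates exchanged, 539 lost features gave −1.79 and 0.67, or 37.1%. The 228 features gained in replicate 1 gave 1.23 and −0.50 in replicate 2, or 40.4% of the way back, and the 161 gained in replicate 2 gave 1.66 and −0.91 in replicate 1, or 55.1%. Of the lost features, 39.56% and 41.002% were within 1 log2 of wild type at F3, and of the gained features 66.2% and 62.1%. The gains were nearer to wild type in meg-3/4 to begin with (medians of 1.23 and 1.66, against −1.88 and −1.79 for losses). The same share was not counted in meg-3/4, so these shares do not compare the reset of gains and losses. No test was made of these values.

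Small RNAs against sid-1, the gene for the transmembrane channel that imports double-stranded RNA into cells, were gained in meg-3/4 and were still far above wild type at F3. sid-1 had 8449.7 and 8303 normalized counts in F3, 11889 and 11329 in meg-3/4, and 1221 and 1245 in wild type. F3 was 2.76 above wild type on the log2 scale (adjusted p = 2.46e-11) and had covered 14.6% of the way back. The difference of −0.47 from meg-3/4 (SE 0.131, adjusted p = 0.0278) lost its call with equal library totals (adjusted p = 0.425) and without F3 replicate 1, F3 replicate 2, meg-3/4 replicate 1 or meg-3/4 replicate 2 (adjusted p of 0.0885 to 0.191), and had the opposite sign under quantile normalization (0.15). B0564.2 had 3041 and 2374 in F3, 4362 and 3973 in meg-3/4, and 82.2 and 96.9 in wild type, so that every F3 library was below every meg-3/4 one and far above wild type, and its difference from meg-3/4 did not pass the test (−0.63, adjusted p = 0.0556).

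Other gains with F3 within 1 log2 of meg-3/4 included features on either side of their meg-3/4 levels. F26D11.1 had 1407 and 2366 normalized counts in F3, 1766 and 1505 in meg-3/4, and 43.4 and 54.3 in wild type, with the F3 libraries on both sides of the meg-3/4 ones (log2 difference 0.16, 95% interval −0.64 to 0.96). F52C6.4 had 221 and 578 in F3, 333 and 355 in meg-3/4, and 34.1 and 32.1 in wild type. The pseudogene F59A1.9 had 2076 and 1935 in F3, 2780.0 and 2417 in meg-3/4, and 306 and 298 in wild type. It was still at 1653 and 2047 in the F25 libraries, whereas F26D11.1 was at 42.3 and 82.8 there, by its wild-type level. pbo-1, a gene needed for a muscle contraction of the defecation cycle, had 547 and 778 in F3, 1054 and 852 in meg-3/4, and 165 and 166 in wild type. In F59A1.9 and pbo-1 both F3 libraries were below both meg-3/4 ones, without passing the test (adjusted p = 0.1 and 0.136).

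Several kept losses were at levels of a few reads in F3 and meg-3/4. K10D2.8 had 10.5 and 7.90 normalized counts in F3, 5.53 and 7.86 in meg-3/4, and 361 and 338 in wild type. The difference between F3 and meg-3/4 was 0.28 (95% interval −0.21 to 0.77), and F3 differed from wild type by −4.65 (adjusted p = 4.69e-11). ndx-2, a Nudix hydrolase gene, had 4.95 and 7.11 in F3, 8.85 and 4.91 in meg-3/4, and 278 and 522 in wild type. The serotonin transporter gene mod-5 had 9.28 and 4.74 in F3, 5.53 and 5.89 in meg-3/4, and 170.2 and 175 in wild type. In ndx-2 and mod-5 the F3 and meg-3/4 libraries overlapped, in K10D2.8 both F3 libraries were above both meg-3/4 ones, and in each gene all 4 lay far below both wild-type libraries.

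unc-10, which encodes the synaptic active zone protein RIM, had 25.98 and 56.9 normalized counts in F3, 38.7 and 32.4 in meg-3/4, and 356 and 409 in wild type. elmd-1 had 17.9 and 13.4 in F3, 8.85 and 19.6 in meg-3/4, and 193 and 231 in wild type. The riboflavin transporter gene rft-1 had 14.2 and 12.6 in F3, 7.74 and 13.7 in meg-3/4, and 190.4 and 159 in wild type. In these genes the F3 and meg-3/4 libraries overlapped. With the added count of 5, log2 changes between such low levels are smaller than the ratios of the counts. In all, 159 gains and 302 losses were still called against wild type with an F3 level shown to be within 1 log2 of meg-3/4 by the 95% interval and a mean of at least 50, whether or not they were called against meg-3/4. Of the 16 named by that rule, sid-1 and C15F1.8 were called lower at F3 than in meg-3/4 and so are not among the kept gains, and 8 overlap another feature.

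**Figure D3:**
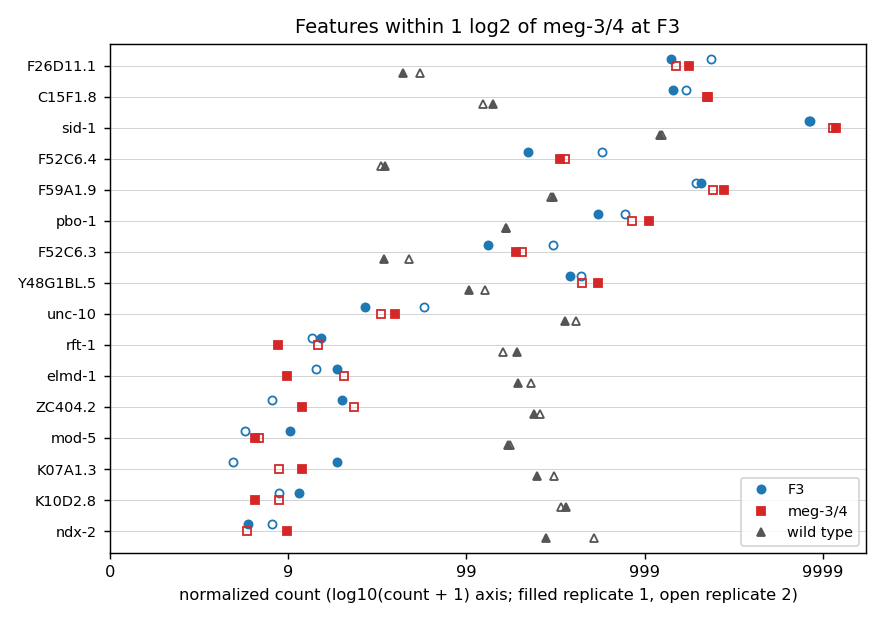
Normalized counts of the 8 gains (upper rows) and the 8 losses (lower rows) with the largest change in meg-3/4 among features called at F3 against wild type and within 1 log2 of meg-3/4 by the 95% interval, on a log10(count + 1) axis; blue circles are F3, red squares meg-3/4 and grey triangles wild type, filled for replicate 1 and open for replicate 2. F3 symbols lie closer to the meg-3/4 ones than to wild type in every row, which the choice of rows favoured; sid-1, at 8449.7 and 8303 in F3 and 11889 and 11329 in meg-3/4, is the highest by level and is called lower at F3.

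The classes set at F3 were followed in libraries that did not set them, with the wild-type libraries as the common base. The lost features that rose had a median of −1.74 log2 from wild type in meg-3/4 and −0.36 at F3, and were at −0.18 in F4, 0.02 in F10 and −0.05 in F25. The kept losses had a median of −1.36 in meg-3/4 and −1.32 at F3, and were at −1.29 in F4, −1.16 in F10, −0.76 in F15 and −0.33 in F25. The 2 F25 libraries differed in this median, at −0.14 and −0.53. The kept gains stood at 0.74 at F3, 0.66 in F4, 0.43 in F10 and 0.16 in F25. The gained features that fell stood at 0.29 at F3, 0.28 in F4, 0.24 in F10 and 0.05 in F25.

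The hrde-1; meg-3/4 triple mutant, in which the gene for the nuclear Argonaute is altered as well, was not used to set the classes. Features lost in meg-3/4 that rose at F3 had medians of −1.69 and −1.93 in the 2 triple mutant libraries. Features lost in meg-3/4 and kept at F3 had −0.49 and −0.52 there. The gap was still there among features with a loss of 1 to 2 log2 in meg-3/4: the triple mutant was at −1.51 over the 170 that rose at F3 and at −0.55 over the 399 that were kept. Of the features that rose, 68.2% were at least 1 log2 below wild type in the triple mutant, against 31.3% of the kept ones. Among gains of 1 to 2 log2 the triple mutant was at 0.56 over the 73 that fell at F3 and at 0.04 over the 55 that were kept. These medians have no test.

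Single genes showed both patterns. Of the features restored at F3, Y51H7C.12 had 6.30 and 3.94 normalized counts in the triple mutant and znf-782 had 9.005 and 11.8, below their meg-3/4 levels. T19A6.4, restored just as fully, had 352 and 211 there and so lay around its wild-type level. Of the kept losses, K10D2.8 had 368 and 385 in the triple mutant and elmd-1 had 900.5 and 793, at or above wild type. mod-5 and ndx-2, also kept losses, stayed low there at 18.9 and 15.8 and at 7.204 and 3.15. Of the gains still far above wild type at F3, sid-1 had 1333 and 1171 in the triple mutant and B0564.2 had 111 and 102, close to wild type.

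**Figure D4:**
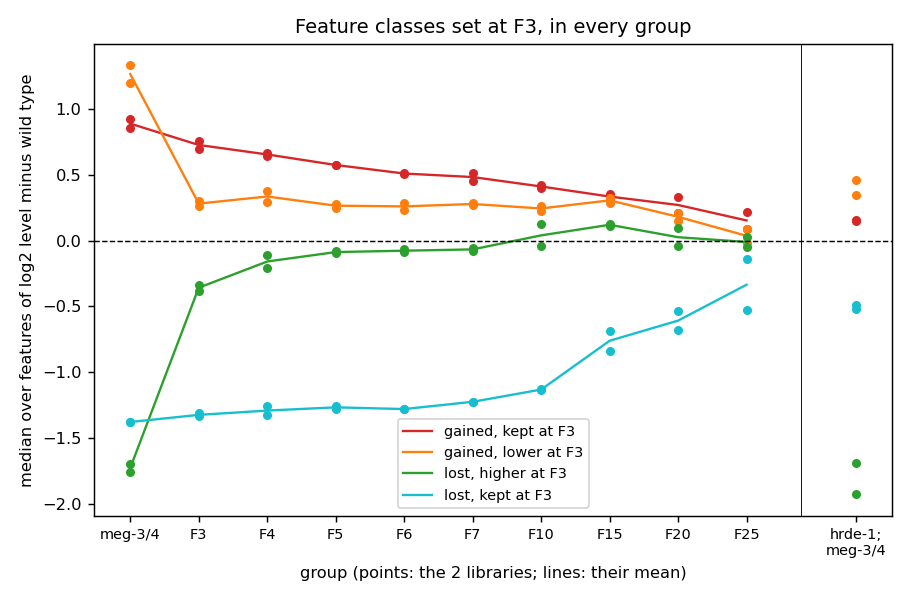
Median log2 level relative to wild type over the features of each class (y axis) in meg-3/4, the descendants by generation and the hrde-1; meg-3/4 triple mutant (x axis); points are the 2 libraries of a group and lines join their means. The classes were set with meg-3/4, F3 and wild type, and in the triple mutant the losses that rose at F3 (−1.69 and −1.93) lie far below the losses kept at F3 (−0.49 and −0.52).

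Some features moved away from both meg-3/4 and wild type. By call, 30 features were higher at F3 than in both and 54 were lower than in both, without a call between meg-3/4 and wild type. T05G5.1 had 232 and 409.8 normalized counts in F3, 36.5 and 40.3 in meg-3/4, and 56.7 and 70.7 in wild type. immt-1, a gene for a mitochondrial inner membrane organizing protein, had 153 and 109.8 in F3, 30.97 and 25.5 in meg-3/4, and 24.3 and 32.1 in wild type, and rose over meg-3/4 by 2.02 (SE 0.244, adjusted p = 8.96e-06). K09F6.6 had 149 and 134 in F3, 40.9 and 32.4 in meg-3/4, and 53.8 and 37.4 in wild type. In these 3 genes both F3 libraries were above all 4 others. Y69H2.10, with 84.1 and 126 in F3, 5.53 and 2.95 in meg-3/4, and 5.79 and 12.3 in wild type, was the most extreme by fold over meg-3/4 (3.56, adjusted p = 1.74e-07).

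Features lower at F3 than in both included members of the ERGO-1 class. ERGO-1 is the Argonaute that binds primary siRNAs against a small set of recently duplicated genes and pseudogenes. E01G4.5 had already been lost in meg-3/4 (log2 −2.24 from wild type, limma adjusted p = 0.0129). It is counted among the 12 losses that fell further and not among the 54 features. E01G4.7, an ERGO-1 class pseudogene, had 181 and 322 normalized counts in F3, 894 and 801 in meg-3/4, and 1089 and 931 in wild type, a fall of 1.79 from meg-3/4 (SE 0.279, adjusted p = 0.000179). E01G4.5 had 29.1 and 138 in F3, 319.7 and 407 in meg-3/4, and 1952 and 1509 in wild type, so that F3 was lowest, but the fall of 2.39 from meg-3/4 (adjusted p = 0.0207) lost its call without F3 replicate 1 (adjusted p = 0.391), meg-3/4 replicate 1 (0.0822) or meg-3/4 replicate 2 (0.135), and in 2 other alternatives. T08B6.2 had 3.09 and 25.3 in F3, 61.9 and 45.2 in meg-3/4, and 131 and 120.3 in wild type, with its call lost without F3 replicate 1 (adjusted p = 0.373), without meg-3/4 replicate 1 (0.156) or with the 3 groups fitted alone (0.0513).

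Of 17 measured ERGO-1 target genes, 8 fell at F3 relative to meg-3/4 and 0 rose by limma, with 11 lower and 0 higher at an unadjusted p under 0.05, 9 lower and 0 higher by edgeR, and 7 lower and 0 higher by DESeq2. Their median was −0.60, against −0.01 over all features, and 2.93% of all features fell. The count was 5 without F3 replicate 1 or without meg-3/4 replicate 1, and 5 with equal library totals. Relative to wild type, 8 of the 17 were lower and 1 was higher at F3, and 5 were lower and 4 were higher in meg-3/4. All 4 that had been gained in meg-3/4 were among the 8 that fell at F3, so those falls were toward wild type. The duplicated sequences of this class mean that the authors' counting could have split reads between copies.

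Among 12 known targets of nuclear RNAi, 4 rose (33.3%, against 5.54% of all features) and 3 fell (25%, against 2.93%), the falls being E01G4.5, sid-1 and rde-11, which are also on the lists of ERGO-1 targets or RNAi factors. The rises were at F15D4.6, the F-box gene fbxb-97 and 2 features on chromosome V that share the name F07B7.2. Leaving out 1 of the F3 or meg-3/4 libraries left 1 or 2 rises and 0 or 2 falls. The call of fbxb-97 (0.37, adjusted p = 0.021) was lost by edgeR (0.096) and in all 4 of these fits (adjusted p of 0.055 to 0.194). The F07B7.2 feature WBGene00021107 had 230.1 and 645 normalized counts in F3, 67.5 and 95.3 in meg-3/4, and 763 and 714 in wild type, with its call lost without F3 replicate 2 (adjusted p = 0.123) or meg-3/4 replicate 1 (0.0679). The other, WBGene00017186, had 211 and 578 in F3, 87.4 and 82.5 in meg-3/4, and 745 and 722 in wild type, with its call lost without F3 replicate 2 (adjusted p = 0.311), meg-3/4 replicate 1 (0.0943) or meg-3/4 replicate 2 (0.0987) and, without a filter, at 0.0525. Reads could have been split between features of one name, and the F3 libraries were far apart at both.

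Genes of the RNAi machinery are themselves targets of small RNAs. Of 34 RNAi factors measured, 3 fell (8.82%, against 2.93% of all features), namely sid-1, rde-11 and eri-6, and 0 rose by limma, with 2 higher at an unadjusted p under 0.05, 0 higher by edgeR and 1 higher by DESeq2. The falls were 1 or 2 without 1 of the F3 or meg-3/4 libraries, and with equal library totals 0 fell and 3 rose. rde-11, a factor in the response to foreign double-stranded RNA, had 2925 and 3852 normalized counts in F3, 6911 and 6404 in meg-3/4, and 453 and 437 in wild type, and its call of −0.99 (adjusted p = 0.0325) was lost in 6 of the alternatives, among them each with F3 replicate 1, meg-3/4 replicate 1 or meg-3/4 replicate 2 left out (adjusted p of 0.279, 0.2 and 0.108). eri-6, part of a helicase of the ERGO-1 pathway, had 5044 and 5635 in F3, 8168 and 7661 in meg-3/4, and 4797 and 5094 in wild type, and lost its call with equal library totals (adjusted p = 0.241) and quantile normalization (0.327).

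Among 24 nuclear RNAi and heritable silencing genes, nrde-1, a nuclear RNAi factor, rose by 0.61, the H3K27 demethylase gene jmjd-3.1 rose by 0.59, and hrde-4 fell by 0.60. The 2 rises are 8.33% and the fall 4.17% of the list, against 5.54% and 2.93% of all features. Each of these 3 calls was lost in at least 2 of the 4 fits that leave out an F3 or a meg-3/4 library. Among 34 germ granule components, meg-3, meg-4 and mip-1, a MEG-3 partner, rose (8.82%, against 5.54% of all features); 0 fell by any of limma, edgeR and DESeq2, and 0 were lower at an unadjusted p under 0.05. The rise of mip-1 (0.35, adjusted p = 0.026) was lost without F3 replicate 1 (0.278), without meg-3/4 replicate 1 (0.421), without a filter (0.0881), with the 3 groups fitted alone (0.0956) and by edgeR (0.0661). With equal library totals 7 of the 34 rose.

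Of 21 Argonaute genes, 0 were called by limma, with 1 higher and 1 lower at an unadjusted p under 0.05, 1 lower by edgeR and 0 by DESeq2. Of 22 piRNA pathway genes, 0 were called by limma, edgeR or DESeq2, and 2 were higher at an unadjusted p under 0.05. Of 80 ribosomal protein genes, 0 were called by limma or DESeq2, 1 was higher by edgeR, and 5 were higher at an unadjusted p under 0.05.

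Neuronal genes were among the targets whose small RNAs rose. Reads antisense to a gene are not its messenger RNA, so these lists describe small RNA targets and not the cells present. The lists were chosen with earlier results of these data known. Of the 16 synaptic and neuronal genes measured, 8 had been lost in meg-3/4, against 17.6% of all features, which favours rises at F3. Of 16 synaptic and neuronal genes measured, 4 rose (25%, against 5.54% of all features) and 0 fell (0 by limma, edgeR or DESeq2 and 0 at an unadjusted p under 0.05), and the 4 rises were kept without any 1 of the F3 or meg-3/4 libraries. trp-4, a mechanosensory channel gene, had 100.2 and 66.3 normalized counts in F3, 2.21 and 4.91 in meg-3/4 (2 and 5 reads), and 548 and 562 in wild type. rimb-1, for a presynaptic partner of RIM, had 37.7 and 45.01 in F3, 1.11 and 1.96 in meg-3/4 (1 and 2 reads), and 232 and 215 in wild type. They had covered 55.5% and 55.1% of the way back, and no library overlapped between groups.

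egl-21, a neuropeptide processing gene, had 29.1 and 24.5 in F3, 5.53 and 2.95 in meg-3/4, and 28.9 and 20.4 in wild type, so that F3 overlapped wild type. ckk-1, a calmodulin kinase kinase gene, had 25.98 and 25.3 in F3, 12.2 and 10.8 in meg-3/4, and 614 and 671 in wild type, and so had risen by 0.89 (adjusted p = 0.00178) with 16.9% of the way back. A further 4 of the 16 genes were kept losses, so that 4 of the 8 lost in meg-3/4 were kept, against 50.2% of all losses. Of 12 ciliated neuron genes, dyf-3 and klp-11 rose (16.7%, against 5.54% of all features). Of the same 12, 0 fell by limma or DESeq2 and 1 was lower by edgeR. At an unadjusted p under 0.05, 3 were higher and 2 lower. Their median difference was −0.13, against −0.01 over all features. klp-11 lost its call without F3 replicate 2 (adjusted p = 0.229) or meg-3/4 replicate 2 (0.094). dyf-3, needed for sensory cilia, had 27.8 and 22.9 in F3, 5.53 and 5.89 in meg-3/4, and 388 and 505 in wild type.

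F-box proteins select substrates for ubiquitin ligases, and the A and B families are greatly expanded in nematodes. Of 62 F-box A genes measured, 11 rose (17.7%, against 5.54% of all features) and 4 fell (6.45%, against 2.93%) at F3. Of the 30 that had been lost in meg-3/4, 11 rose and 12 were kept losses. Without 1 of the F3 or meg-3/4 libraries the rises were 9 to 11 and the falls 1 to 3. Among the rises, fbxa-166, fbxa-170 (98.97 and 71.9 in F3, 19.9 and 12.8 in meg-3/4, 63.7 and 74.7 in wild type) and fbxa-184 (46.4 and 58.4 in F3, 7.74 and 10.8 in meg-3/4, 159.7 and 166 in wild type) led. The gene fbxa-170 lies close to meg-4 on the X chromosome, and the part of this in its rise was not tested. Of 40 F-box B genes, 3 rose (7.5%) and 1 fell (2.5%), shares near those of all features. Of these genes, 28 had been lost in meg-3/4, of which 3 rose and 23 were kept losses. Among all lost features 26.3% rose and 50.2% were kept. The rises were 1 or 2 and the falls 0 without 1 of the F3 or meg-3/4 libraries. fbxb-24 had 73.0 and 114 in F3, 33.2 and 38.3 in meg-3/4, and 302 and 329 in wild type, and had covered 41.9% of the way back. Members of these families share sequence, so reads could have been split between them.

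Histone genes and collagen genes also held rises. Of 44 histone genes, 6 rose (13.6%, against 5.54% of all features) and 2 fell (4.55%, against 2.93%), with 2 to 4 rises and 0 or 1 falls when 1 of the F3 or meg-3/4 libraries was left out. his-16 had 129 and 124 normalized counts in F3, 36.5 and 47.1 in meg-3/4, and 46.9 and 40.3 in wild type, and was above both of the other groups in both F3 libraries. Histone genes have near-identical copies, so their single values are uncertain. Of 20 collagen genes, 4 rose (20%), with 2 to 4 when 1 library was left out, and 0 fell by limma, with 3 lower at an unadjusted p under 0.05, 1 lower by edgeR and 0 by DESeq2. Of the 20, 8 had been lost in meg-3/4, against 17.6% of all features, which favours rises at F3, and all 4 rises were among them. col-60 had 61.2 and 47.4 in F3, 15.5 and 10.8 in meg-3/4, and 38.2 and 30.9 in wild type.

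Of 42 lincRNAs measured, 13 fell (30.95%, against 2.93% of all features) and 3 rose (7.14%, against 5.54%). Of 53 snoRNAs, 7 fell (13.2%) and 0 rose (0 by limma, edgeR or DESeq2 and 0 at an unadjusted p under 0.05). In meg-3/4, 16 of the 53 snoRNAs and 7 of the 42 lincRNAs had been gained, against 8.28% of all features, which favours falls at F3. All 7 snoRNA falls and 5 of the 13 lincRNA falls were among these gains. With 1 of the F3 or meg-3/4 libraries left out the falls were 4 to 6 for lincRNAs and 2 to 6 for snoRNAs. With equal library totals 3 lincRNAs fell and 3 rose, and 2 snoRNAs fell and 0 rose. The snoRNA feature ZK185.9 had 212 and 90.0 in F3, 767 and 681 in meg-3/4, and 47.5 and 36.8 in wild type, with its call lost without F3 replicate 2 (adjusted p = 0.0927). linc-12 had 7.42 and 11.05 in F3, 75.2 and 71.7 in meg-3/4, and 31.8 and 30.9 in wild type, and so lay below both groups by value. rrn-1.1 (WBGene00004512), an 18S ribosomal RNA gene with a second copy of the same name, had 442 and 539 in F3, 1101 and 989.8 in meg-3/4, and 319 and 299 in wild type, a fall of 1.09 (SE 0.167, adjusted p = 0.000148). The second copy, WBGene00004513, fell by 0.98 (SE 0.207, adjusted p = 0.00358). Its call was lost in 3 of the 17 alternatives, among them equal library totals (adjusted p = 0.0594). Of 33 MATH and BATH domain genes, 6 fell (18.2%) and 1 rose (3.03%), and the falls numbered 2 to 4 with 1 library left out and 0 with equal library totals. Of the 33, 10 had been gained in meg-3/4, and all 6 falls were among them.

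Of 408 pseudogenes, 47 (11.5%) rose and 29 (7.11%) fell, against 5.54% and 2.93% of all features. In meg-3/4, 117 of the 408 had been lost and 50 gained, against 17.6% and 8.28% of all features. Of the 47 rises 41 were among those losses, and of the 29 falls 16 were among those gains. Without 1 of the F3 or meg-3/4 libraries 29 to 35 rose and 10 to 22 fell. The pseudogene F59H6.2 had 273 and 270.0 in F3, 45.4 and 41.2 in meg-3/4, and 185 and 190.3 in wild type, a rise of 2.52 (SE 0.107, adjusted p = 1.23e-11). By chromosome, 99 of 832 features on X rose (11.9%), against 3.82% to 6.45% on the autosomes, and 3.13% of X features fell. These shares are counts over genes with no test. The 20 measured features that hold microRNA reads had a median of −0.46 between F3 and meg-3/4, and 0 were called by limma, edgeR or DESeq2 or at an unadjusted p under 0.05. Of the germline lists, 0 of 22 oocyte and eggshell genes were called by limma, edgeR or DESeq2 or at an unadjusted p under 0.05, and of 29 mitotic and meiotic germline genes 0 were called by the 3 tools, with 1 higher and 1 lower at an unadjusted p under 0.05.

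**Figure D5:**
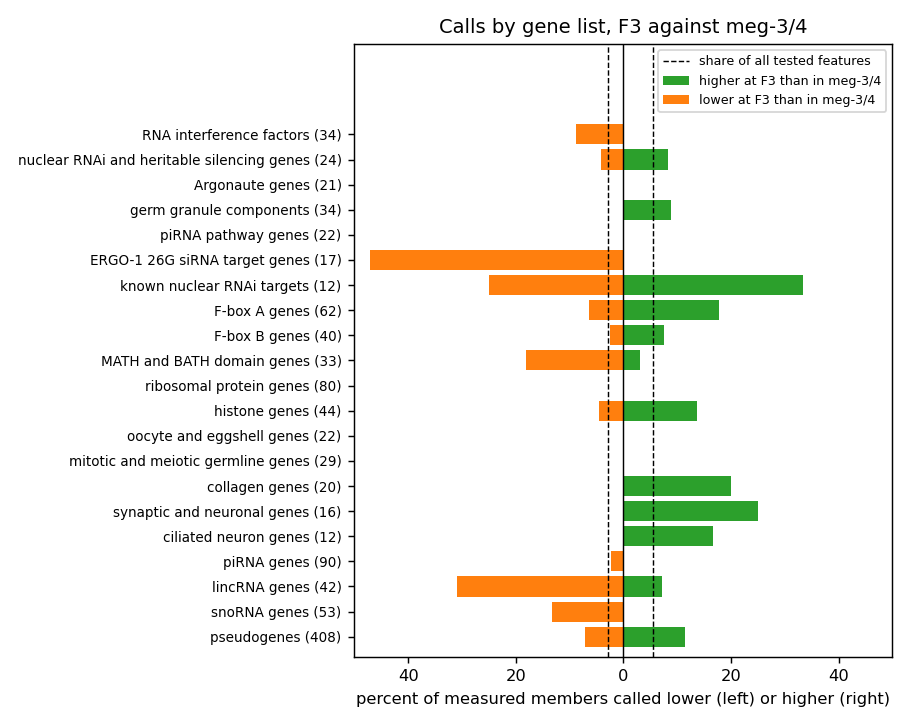
Percent of the measured members of each gene list with at least 10 of them (number in brackets) called lower, drawn to the left in orange, or higher, drawn to the right in green, at F3 than in meg-3/4; dashed lines mark the shares over all tested features, 2.93% to the left and 5.54% to the right. ERGO-1 target genes (8 of 17) and lincRNAs (13 of 42) reach farthest to the left of the lists drawn, and synaptic and neuronal genes (4 of 16) and known nuclear RNAi targets (4 of 12) farthest to the right. The lists were chosen with earlier results of these data known.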

How the data were processed

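Small RNA libraries were processed by the authors with cutadapt, Bowtie, featureCounts and DESeq2, per the submitters' processing notes; no source used here gives their versions, the genome build, the annotation or the strand setting. The deposited signal values are normalized counts: all 386038 values above 0 were whole reads divided by 1 factor per library (tolerance 0.01). Ensembl release 115 (WBcel235) named 46364 of 46726 features; 362 had no match. Differences were tested with limma 3.58.1 (R 4.3.3, intensity trend, all 12 groups in one fit, 12 residual degrees of freedom, Benjamini-Hochberg at 0.05); on recovered reads edgeR 4.0.16 called 530 features higher and 298 lower and DESeq2 1.42.0 called 484 and 279. On simulated counts for F3 against meg-3/4 (8562 features), 79% of 2-fold and 100% of 4-fold changes were found among features with a mean of at least 50, and 5 unchanged features were called. The simulated libraries were drawn independently, with the same spread of a feature in every group. They therefore do not cover a wider spread in F3 or replicate gaps that recur across generations.

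Percent of the way back is the log2 difference of F3 from meg-3/4 over that of wild type from meg-3/4. Named features were the 12 largest changes per direction without overlap and with a mean of at least 50, the 8 largest per direction still called against wild type with a 95% interval within 1 log2 of meg-3/4, the 5 largest beyond both groups, up to 4 called members per gene list, 8 fixed genes (B0564.2, F16A11.6, K01F9.6, meg-3, meg-4, sid-1, rde-11 and hrde-1), and the 5 with the widest gap between the F3 libraries. Features, lists and tests were chosen with earlier results of these data known. Alternatives changed the pseudocount (1 or 20), filter, scaling, libraries and test.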

Additional observations from a re-analysis of the deposited data

How the results depend on the processing

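The counts of features that rose at F3 and of losses that rose were within 1.5 times their values under all 17 alternatives. With equal library totals 113 features fell, 67 gains fell and 101 gains were kept. Kept gains were also 117 without a filter, 387 under quantile normalization, 291 without the 2 shallowest libraries (F4 replicate 2 and F10 replicate 1) and 324 by edgeR. Leaving out 1 library at a time gave 343 to 459 features that rose, 106 to 241 that fell, 73 to 142 gains that fell, 94 to 160 kept gains, 296 to 357 losses that rose and 477 to 674 kept losses; fewer libraries enter those fits, and a lone library is assumed to vary like the other groups. Of 1712 values of called named features under alternatives, 1558 kept direction and call, 153 lost the call and 1, sid-1 against meg-3/4 under quantile normalization, changed sign (0.15). The cause of these shifts between scalings was not tested.

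The labels number replicates alike in all groups but do not say that numbers pair them. Differences between replicates 1 and 2 correlated across features at 0.114 for F3 and meg-3/4, 0.111 for meg-3/4 and wild type, and 0.0684 for F3 and wild type. These correlations leave out the later descendants, whose libraries share the fit. In E01G4.3 and col-111 replicate 2 was above replicate 1 in every generation from F3 to F7. If such gaps follow lines of descent, the descendant libraries are not independent. The p-values make no allowance for that, and it was not tested. With a replicate block, 538 features rose, 296 fell, 204 gains fell, 208 gains were kept, 446 losses rose and 808 losses were kept. Levels of a few reads limit the kept losses: 3 reads are worth 1.86 and 2.37 normalized counts in F3, and 3.32 and 2.95 in meg-3/4. Intervals cover the spread between these libraries only, and PCR copies of one molecule were counted as separate reads.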

Other observations

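A small number of features differed widely between the 2 F3 libraries. By at least 2 on the log2 scale, 31 features differed between the F3 libraries, 7 between the meg-3/4 libraries and 6 between the wild-type libraries. seld-1, which encodes selenophosphate synthetase, had 109 and 3367 normalized counts in the F3 libraries, 77.4 and 77.6 in meg-3/4, and 86.8 and 78.8 in wild type. In the later generations, F4 to F25, its level was 88.3 to 137 in the libraries numbered 1 and 2844 to 3754 in those numbered 2, and in the triple mutant it was 1115 and 692. No library of the later generations fell between these ranges. The labels do not say whether a replicate number follows a line of descent.

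Of 3 other features with wide gaps, the libraries numbered 2 stayed above those numbered 1 in all 8 later generations in ZK1010.4 and from F4 to F10 in F42A9.8 and comt-3. F42A9.8 had 32.8 and 575 in F3, 63.1 and 50.1 in meg-3/4, and 69.5 and 71.8 in wild type, and its later libraries numbered 1 and 2 spanned 16.4 to 68.2 and 33.8 to 229.5. comt-3, of the catechol-O-methyltransferase family, had 22.9 and 296 in F3, 8.85 and 11.8 in meg-3/4, and 205 and 199.7 in wild type, and its later libraries spanned 64.5 to 127 and 93.8 to 218. ZK1010.4 had 12.99 and 163 in F3, 3.32 and 4.91 in meg-3/4, and 102 and 130.2 in wild type, and its later libraries spanned 22.8 to 191 and 105 to 220, so that the ranges overlapped. At F3 1 library of ZK1010.4 was near meg-3/4 and the other past wild type. For these features the F3 mean describes neither library.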
